A study of Homo sapiens with 15 samples.

Results

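Cortisol and aldosterone are made from cholesterol in the adrenal cortex by a short chain of enzymes, and the RNA of 10 genes of this chain was followed in the NCI-H295R line, which derives from a human carcinoma of the adrenal cortex. The 10 genes, taken from a fixed list of names and all found among the 21493 genes of the files, are the cholesterol carrier STAR, the enzymes CYP11A1, HSD3B2, CYP17A1, CYP21A2, CYP11B1 and CYP11B2, and the electron carriers POR, FDX1 and FDXR. Of the 15 libraries, 3 came from cells transfected with a plasmid coding for a T7-tagged NFATC4 that lacks its N-terminal part and is active without calcineurin (labelled active NFATC4, called ΔNFATC4 here), and 4 from cells given empty plasmid (mock), both taken 3 days after transfection. A further 4 libraries are labelled NFATC4-KO (replicates 1, 2, 3 and 5), from lines grown out of single Cas9-edited cells, and 4 are labelled control, from cells transfected in parallel with plasmid lacking guides. The line itself is shared by all groups, no group is said to have been given a secretagogue, and the sources do not say which clone a library came from or whether replicates were separate cultures, so P values rest on the spread among the libraries, which may be technical.

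STAR brings cholesterol to the inner mitochondrial membrane, where CYP11A1 cuts its side chain to give pregnenolone. HSD3B2 turns pregnenolone into progesterone, CYP17A1 diverts both steroids towards cortisol and androgens by 17-hydroxylation, and CYP21A2 makes the direct precursors of the end products. CYP11B1 completes cortisol in the zona fasciculata and CYP11B2, aldosterone synthase, completes aldosterone in the zona glomerulosa. Cytochrome P450 enzymes need electrons from NADPH, which POR hands to the microsomal CYP17A1 and CYP21A2, whereas adrenodoxin (FDX1), reduced by adrenodoxin reductase (FDXR), serves the mitochondrial CYP11A1, CYP11B1 and CYP11B2. NFATC4 is a transcription factor that enters the nucleus once the phosphatase calcineurin has removed its phosphates.

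The libraries held 18.8 to 28.2 M counts assigned to genes, and levels are given in CPM, which relates counts to the library's total after TMM scaling. The targeted gene, NFATC4, stood at 94.6 ± 8.03 CPM (SD, n = 4) in mock libraries and at 344 ± 14.8 (n = 3) after transfection of ΔNFATC4, whose plasmid also yields NFATC4 reads. It ranged from 44.8 to 114 CPM in the libraries labelled control and from 53.6 to 92.6 in those labelled NFATC4-KO, so its RNA did not part these labels, and since editing can leave the RNA in place, the RNA level does not check the knockout. Within both labels the libraries fell apart in the same way. Control and NFATC4-KO replicates 1 and 2 held 85.4 to 114 CPM of NFATC4, and control replicates 3 and 4 with NFATC4-KO replicates 3 and 5 held 44.8 to 57.5. This split is not in the labels. NFATC4, CYP11B1 and CYP11B2 RNA thus followed the replicate number and not the label control or NFATC4-KO, and whether labels and numbering are right was not tested, which bears on every comparison of libraries labelled NFATC4-KO and control. These libraries are called below the low-numbered set (replicates 1 and 2) and the high-numbered set (replicates 3 to 5). The labelled line was checked with 10 adrenocortical markers, such as NR5A1 and MC2R, and all 10 were above 1 CPM in every group. Of 7 fibroblast markers 2 were above 1 CPM in any group, with a summed level of 14.2 to 26.4 CPM in mock, control and NFATC4-KO libraries and of 45.9 to 53.4 in ΔNFATC4 libraries, and 5 endothelial markers summed to at most 0.689 CPM. Of 6 leukocyte markers, 3 had counts in every ΔNFATC4 and every mock library, with a sum of 2.93 to 3.48 CPM in ΔNFATC4 and of 1.79 to 2.84 in mock libraries, and CD68 was called higher (1.82 on the log2 scale, adjusted p = 0.000189, edgeR). Group means of the leukocyte markers PTPRC and CD3E were at most 0.0320 CPM, and those of the fibroblast markers COL1A2 and PDGFRA at most 0.277. The fibroblast marker COL3A1 was called higher in ΔNFATC4 than in mock libraries (38.2 against 12.1 CPM, 1.66 on the log2 scale, adjusted p = 3.33e-11, edgeR). So was LUM (1.59, adjusted p = 0.00924, edgeR), whereas COL1A1 (−0.09) and the leukocyte marker CD14 (−0.16) were not called. Of 7 adrenal medulla markers, CHGA and CHGB were above 1 CPM in every group, with CHGB at 39.8 CPM in mock libraries. The part of the fibroblast and leukocyte markers in the ΔNFATC4 results was not tested.

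The genes lie on 8 chromosomes in GRCh38. CYP11B1 (ENSG00000160882, chr8:142872356-142879846) and CYP11B2 (ENSG00000179142, chr8:142910559-142917843) are neighbours on the minus strand of chromosome 8, which also holds STAR (ENSG00000147465, chr8:38142700-38150992). The remaining enzymes are CYP11A1 (ENSG00000140459, chr15:74337759-74367646), HSD3B2 (ENSG00000203859, chr1:119414931-119423035), CYP17A1 (ENSG00000148795, chr10:102830531-102837472) and CYP21A2 (ENSG00000231852, chr6:32038327-32041644). The carriers are POR (ENSG00000127948, chr7:75899200-75986855), FDX1 (ENSG00000137714, chr11:110429948-110464884) and FDXR (ENSG00000161513, chr17:74862497-74873031). Similar genes can share reads. Of the 1907 windows of 100 bases in the CYP21A2 transcript, 29.5% also occurred unchanged in the pseudogene CYP21A1P or in a second annotated copy, neither of which is among the identifiers of the files, so how reads of this part were counted is unknown and CYP21A2 levels are uncertain to that extent. CYP11B1 and CYP11B2 shared 104 windows, 3.02% and 3.67% of their transcripts, and HSD3B2 shared 4 of 1576 with HSD3B1, which had 0 to 5 counts per library. CYP21A2 is overlapped on the opposite strand by TNXB, which had 10 to 47 counts per library.

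The transcripts of the pathway were unequal in abundance. Divided by the length of the exons, in CPM per kilobase, mock cells held most STAR (173) and CYP11A1 (146), the delivery and entry steps. FDXR (83.0), POR (82.8) and CYP17A1 (79.2) followed, with mock libraries that overlapped between neighbours in this order. CYP21A2 (44.5), FDX1 (35.9) and HSD3B2 (27.8) came next, without overlap. The last enzymes were far lower, CYP11B2 at 0.793 and CYP11B1 at 0.469 CPM per kilobase. In ΔNFATC4 cells the middle of this order was compressed. CYP17A1 (57.7) overlapped with CYP21A2 (52.4), HSD3B2 (42.2) overlapped with and stood above FDX1 (39.0), and CYP11B2 reached 13.1 against 0.956 for CYP11B1. The high-numbered set had CYP11A1 (110) first, FDXR (79.4) second and STAR (58.1) beside POR (58.9) after it. The divisor is the union of all annotated exons, which for some genes exceeds the transcript used for the windows above. For POR it is 6222 bases against 2446, and for FDX1 it is 3144 in both. The order between genes, and which neighbours overlap, therefore depends on this divisor.

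**Figure D1:**
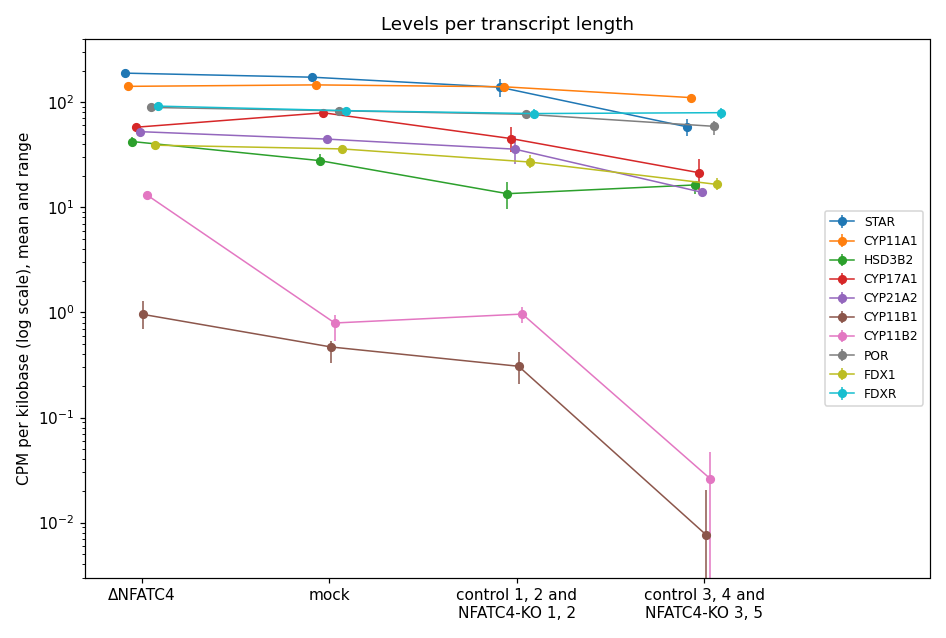
Mean level of the 10 genes in CPM per kilobase of exon, on a log axis, in ΔNFATC4, mock, low-numbered and high-numbered libraries, with vertical bars from the lowest to the highest library (bars that reach 0 run off the axis). CYP11B2 rises from 0.793 in mock to 13.1 in ΔNFATC4 cells, and both CYP11B genes lie under 0.03 in the high-numbered set.

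ΔNFATC4 and mock cells were compared to ask which steps respond to active NFATC4. Aldosterone synthase stood out, and of the upstream enzymes HSD3B2 and CYP21A2 were higher and CYP17A1 was lower, while STAR, CYP11A1 and all 3 electron carriers did not pass the test. By edgeR's quasi-likelihood test on these 7 libraries, 4 of the 10 genes were higher at an adjusted p under 0.05, where 7.69% of 14094 genes tested were higher, and 1 was lower, where 6.10% were lower. In either direction 5 of 10 were called against 13.8% of all genes. The median log2 fold change of the 10 was 0.14, and that of all genes tested was −0.0027. In bulk RNA, more cells with a transcript and more transcript per cell cannot be told apart.

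CYP11B2 was read at 38.2, 41.1 and 35.7 CPM in the ΔNFATC4 libraries and at 2.78, 2.41, 2.54 and 1.58 in the mock libraries. Every ΔNFATC4 library was thus far above every mock library. The means, 38.3 ± 2.66 and 2.33 ± 0.521, differed 16.5-fold, with a log2 fold change of 4.06 (SE 0.12, adjusted p = 4.92e-15, edgeR). CYP11B1, which completes cortisol, had 3.72, 5.44 and 2.90 CPM against 2.08, 2.24, 2.17 and 1.40. It also rose without overlap, by 1.06 on the log2 scale (SE 0.21, adjusted p = 0.00151, edgeR), but from counts of 39 to 52 per mock library. Of the reads of both genes, CYP11B2 held 51.9% to 57.1% in mock libraries (mean 54.0 ± 2.27) and 88.3% to 92.5% in ΔNFATC4 libraries (90.6 ± 2.13). The widest exact binomial interval of 1 mock library ran from 41.7% to 64.1%, for counting error only, and no mock interval reached the lowest ΔNFATC4 bound of 86.2%.

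HSD3B2, which makes progesterone, had 89.2, 107 and 91.9 CPM in ΔNFATC4 cells and 73.0, 63.7, 58.2 and 58.2 in mock cells. The groups did not overlap, and HSD3B2 rose by 0.61 on the log2 scale (SE 0.08, adjusted p = 4.47e-05, edgeR). CYP17A1, at the branch towards cortisol and androgens, had 187, 209 and 190 CPM against 292, 252, 279 and 250. This was the only member called lower, with a log2 fold change of −0.45 (SE 0.07, adjusted p = 7.72e-05, edgeR). CYP21A2, common to both branches, had 139, 164 and 141 CPM against 127, 122, 128 and 125. Its rise was small, 0.24 on the log2 scale (SE 0.06, adjusted p = 0.0156, edgeR), and without ΔNFATC4 replicate 2 it was 0.16 (adjusted p = 0.193, edgeR).

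Of the 5 calls, 3 depend on which libraries supply the spread. A fit of all 15 libraries with 4 group means, in which the split within the control and NFATC4-KO labels enters the spread, kept HSD3B2 (adjusted p = 0.0388, edgeR) and CYP11B2 (adjusted p = 0.0291, edgeR) (2.27% of 14368 genes were higher there and 1.42% lower) and lost CYP17A1 (adjusted p = 0.623), CYP21A2 (0.903) and CYP11B1 (0.711). Giving the low-numbered and high-numbered sets their own means, 6 in all, restored the 5 calls (8.73% of genes higher and 7.66% lower). Since the sets were drawn from values of these libraries, that fit takes the split out of the spread by construction. Libraries of ΔNFATC4 and mock did not overlap for 6 members, 5 higher (12.5% of 14368 genes were wholly above mock) and 1 lower (11.7% wholly below). Each of these 6 had an exact two-sided permutation p of 0.0571, the smallest that 3 against 4 libraries allow, or 0.0952 after Benjamini-Hochberg adjustment over the 10.

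The supply steps moved little. STAR had 822, 900 and 796 CPM in ΔNFATC4 cells and 744 to 806 in mock cells, an overlap, with a log2 fold change of 0.13 (SE 0.06, adjusted p = 0.163, edgeR). CYP11A1 had 447 to 512 CPM against 470 to 516, a difference of −0.04 (SE 0.06, adjusted p = 0.710, edgeR). Among the electron carriers, the log2 fold change was 0.11 for POR (SE 0.06), 0.12 for FDX1 (SE 0.06) and 0.14 for FDXR (SE 0.07), with adjusted p of 0.263, 0.232 and 0.167 (edgeR). FDX1 was 121 to 124 CPM against 106 to 121, and its groups only just failed to touch. Without mock replicate 1, which was the highest mock library for STAR, FDX1 and FDXR, these 3 passed the threshold and 7 members were higher. Calls rose among all genes too, to 1341 higher and 1219 lower of 14000. With that library kept they were 1084 and 860 of 14094.

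**Figure D2:**
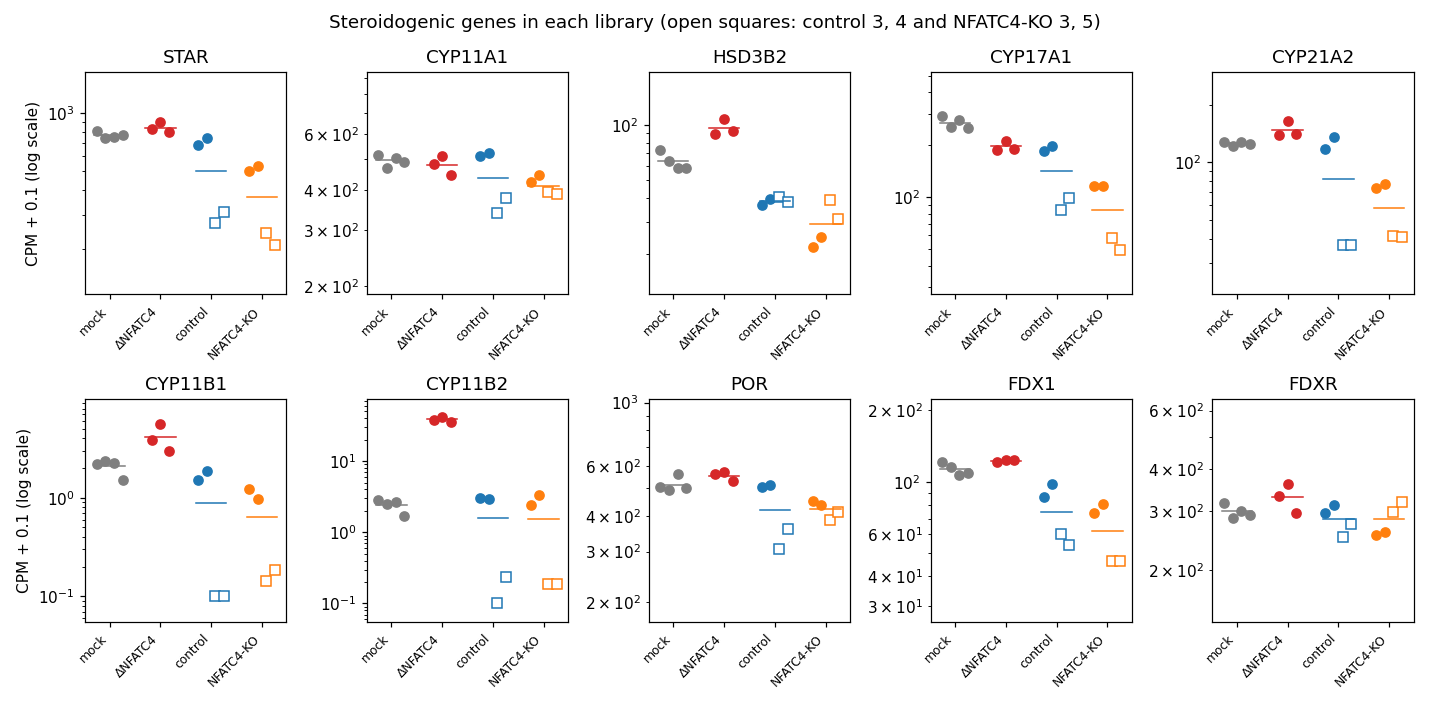
CPM + 0.1 on log axes, 1 panel a gene with its own range, for each of the 15 libraries, with group means as bars. Filled circles are mock, ΔNFATC4, and replicates 1 and 2 of control and NFATC4-KO, and open squares are control 3 and 4 and NFATC4-KO 3 and 5. HSD3B2 and FDXR are the only panels in which open squares and filled circles of the control and NFATC4-KO labels overlap.

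The opposite calls on HSD3B2 and CYP17A1 changed their proportion. Per kilobase of exon, CYP17A1 was 2.86 ± 0.26 times HSD3B2 in mock libraries (2.66 to 3.22) and 1.37 ± 0.05 times in ΔNFATC4 libraries (1.31 to 1.41). The size of such a ratio depends on the exon length taken. The ratio of CYP21A2 to CYP17A1 was 0.564 ± 0.035 in mock and 0.907 ± 0.030 in ΔNFATC4 libraries, again without overlap. POR relative to the sum of its clients CYP17A1 and CYP21A2 was 0.670 ± 0.038 in mock and 0.811 ± 0.048 in ΔNFATC4 libraries. STAR relative to CYP11A1 went from 1.18 ± 0.04 to 1.34 ± 0.03. These 4 ratios had an exact permutation p of 0.0571 each, the smallest possible, or 0.0857 after Benjamini-Hochberg adjustment over the 6 ratios computed. For CYP17A1 to HSD3B2 and CYP21A2 to CYP17A1 that outcome was fixed beforehand. CYP17A1 lay wholly below mock and the other genes wholly above, so their ratios could not overlap and add no evidence to the single genes. On the mitochondrial side the proportions overlapped. Most of the sum of the 3 enzymes served by FDX1 was CYP11A1, at 146 CPM per kilobase in mock and 141 in ΔNFATC4 libraries. CYP11B2 held 0.793 and 13.1, so the ratio of FDX1 to this sum mainly reflects CYP11A1. FDX1 was 0.244 ± 0.016 of the sum of its 3 client enzymes in mock and 0.252 ± 0.018 in ΔNFATC4 libraries (exact permutation p = 0.629, adjusted 0.754), and FDXR was 2.32 ± 0.12 and 2.35 ± 0.23 times FDX1 (exact permutation p = 0.857, adjusted 0.857). The mock level of CYP17A1 was high among all libraries, 250 to 292 CPM against 183 to 197 in control replicates 1 and 2, and the ΔNFATC4 level, 187 to 209, lay beside the latter. HSD3B2 was also higher in mock, 58.2 to 73.0 CPM against 36.9 to 39.5 in control replicates 1 and 2. Its ΔNFATC4 level, 89.2 to 107 CPM, lay above both. Mock and control were separate transfections and were not compared by a test.

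**Figure D3:**
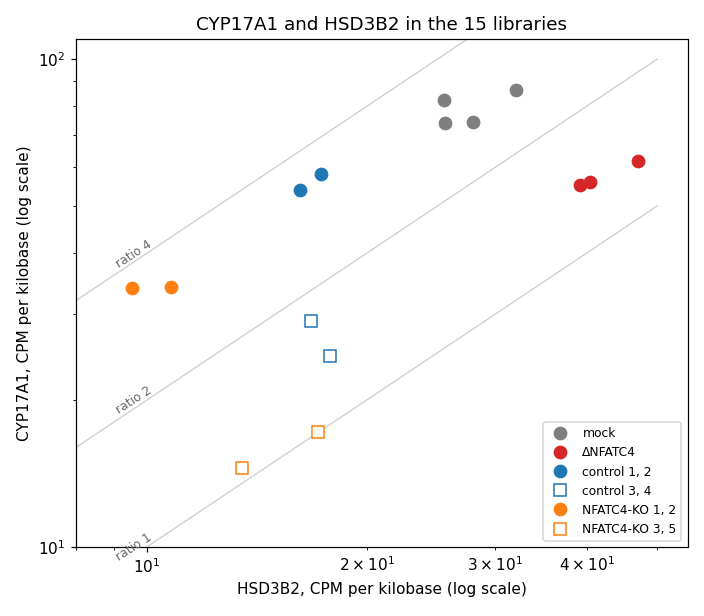
CYP17A1 against HSD3B2 in each of the 15 libraries, both in CPM per kilobase of exon on log axes, with grey lines at equal ratio. Mock libraries lie at ratios of 2.66 to 3.22 and ΔNFATC4 libraries at 1.31 to 1.41, and the high-numbered set lies at 1.00 to 1.73 with less of CYP17A1.

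The sequences in front of 4 enzymes with unlike responses are shown to set these responses beside the DNA. They are the 250 bases before the RefSeq start in GRCh38.p14, read 5′ to 3′ along the gene. For CYP17A1 and CYP21A2, GENCODE models of the gene begin further upstream, inside the window. Capitals mark each match on either strand to TCAAGG, the core of sites bound by SF-1 (NR5A1), to GGAAA, the core bound by NFAT proteins, and to TGACG, part of the cyclic AMP response element. CYP11A1 is at chr15:74367647-74367896 (minus strand), HSD3B2 at chr1:119414681-119414930 (plus), CYP17A1 at chr10:102837414-102837663 (minus) and CYP21A2 at chr6:32038165-32038414 (plus).
CYP11A1: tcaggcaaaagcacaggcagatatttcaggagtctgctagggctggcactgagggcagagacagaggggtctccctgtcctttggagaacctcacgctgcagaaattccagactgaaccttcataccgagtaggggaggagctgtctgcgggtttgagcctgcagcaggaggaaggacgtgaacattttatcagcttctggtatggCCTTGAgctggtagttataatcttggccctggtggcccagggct
HSD3B2: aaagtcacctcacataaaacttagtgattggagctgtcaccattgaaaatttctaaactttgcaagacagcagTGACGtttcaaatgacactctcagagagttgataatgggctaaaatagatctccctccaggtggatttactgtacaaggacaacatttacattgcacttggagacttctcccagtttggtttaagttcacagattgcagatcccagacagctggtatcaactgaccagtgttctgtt
CYP17A1: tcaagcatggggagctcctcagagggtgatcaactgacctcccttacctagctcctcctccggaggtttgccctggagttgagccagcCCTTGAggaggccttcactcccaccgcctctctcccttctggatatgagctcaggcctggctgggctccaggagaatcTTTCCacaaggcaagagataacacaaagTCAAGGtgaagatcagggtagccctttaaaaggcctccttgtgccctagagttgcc
CYP21A2: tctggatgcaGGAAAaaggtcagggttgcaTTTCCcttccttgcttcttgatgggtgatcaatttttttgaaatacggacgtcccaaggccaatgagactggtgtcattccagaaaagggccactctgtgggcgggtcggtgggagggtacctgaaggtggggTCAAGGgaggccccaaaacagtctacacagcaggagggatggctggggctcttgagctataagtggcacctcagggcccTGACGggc

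TCAAGG matched once before CYP11A1, at 44 bases from the start (counted to the match's far end), 2 times before CYP17A1, at 162 and 56 bases, and once before CYP21A2, at 87 bases, and did not match before HSD3B2. Of 35116 promoters of this length in the table, 10.5% held it. GGAAA matched once before CYP17A1, at 84 bases, and at 240 and 220 bases before CYP21A2, with no match before HSD3B2 or CYP11A1, and 55.6% of all promoters held it. TGACG matched before HSD3B2, at 177 bases, and before CYP21A2, at 8 bases, and 21.2% of promoters held it. FDX1 and FDXR each had 1 match to GGAAA and none to the other motifs. Of the 4 enzymes called higher, HSD3B2 and CYP21A2 have a promoter in the table and both held TGACG, while CYP11B1 and CYP11B2 were not searched. CYP17A1, called lower, held GGAAA, as did CYP21A2. A match of letters shows no binding.

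The libraries labelled NFATC4-KO and control were compared to ask whether loss of NFATC4 lowers the pathway. As labelled, no member passed. Their log2 fold changes ranged from −0.74 (SE 0.38, adjusted p = 0.625, edgeR) for CYP17A1 to 0.0024 (SE 0.16) for POR, with a median of −0.35 against −0.0065 over all genes tested. By edgeR 0 of 10 members and 0% of 13868 genes were called, with 1 member (HSD3B2, −0.42, SE 0.17, unadjusted p = 0.035) and 1257 genes at an unadjusted p under 0.05. DESeq2 called 65 genes higher and 90 lower and limma-voom 0, and neither called a member. The standard errors of the last enzymes, 1.33 for CYP11B1 and 1.37 for CYP11B2, exceed a 2-fold change, and with the set as a term they were 0.34 and 0.25. The fold changes were −0.61 and −0.04 on the log2 scale, and both turned in sign under alternatives, to 1.51 for CYP11B1 and 0.16 for CYP11B2 with 6 means over all libraries and to 0.49 and 0.29 by limma-voom.

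With the set as a term in the fit, 4 members were lower in the libraries labelled NFATC4-KO, STAR, HSD3B2, CYP17A1 and FDX1, and 609 genes were higher and 837 lower (4.39% and 6.04% of 13868). STAR had 685, 744, 273 and 308 CPM in control replicates 1 to 4 and 501, 534, 241 and 211 in NFATC4-KO replicates 1, 2, 3 and 5. Within each set the libraries labelled NFATC4-KO were lower, and the log2 fold change in the fit with the set was −0.42 (SE 0.06, adjusted p = 0.000268, edgeR). CYP17A1 had 183, 197, 83.4 and 98.4 CPM in control and 115, 116, 58.1 and 49.1 in NFATC4-KO libraries. Its difference was nearly equal in the sets, −0.72 in the low-numbered and −0.76 in the high-numbered, and −0.74 in the fit (SE 0.06, adjusted p = 1.13e-05, edgeR). The sets were chosen on values of these libraries, so these P values are a description of the split data, not independent evidence.

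FDX1 had 86.2, 97.9, 60.3 and 54.1 CPM in control and 73.8, 80.9, 46.4 and 46.3 in NFATC4-KO libraries, a change of −0.28 in the fit with the set (SE 0.06, adjusted p = 0.00826, edgeR). HSD3B2 had 36.9, 39.5, 40.6 and 38.2 CPM in control and 21.7, 24.6, 39.1 and 30.7 in NFATC4-KO libraries. It was the member with the steadiest control level, and the labels parted in the low-numbered set (−0.71) but overlapped in the high-numbered set (−0.18). The fit with the set gave −0.44 (SE 0.10, adjusted p = 0.00860, edgeR). In all, 3 members (STAR, CYP17A1 and FDX1) were wholly lower in NFATC4-KO libraries within both sets, a pattern shown by 11.0% of 14368 genes. With the replicate number as a block over the 3 shared numbers, STAR (−0.37, adjusted p = 0.0265, edgeR) and CYP17A1 (−0.66, adjusted p = 0.00266, edgeR) were called lower. HSD3B2 had an adjusted p of 0.0725 and FDX1 of 0.0970 (edgeR), and 44 genes (0.317% of those tested) were called higher and 94 (0.677%) lower. Number 3 lies in the high-numbered set, so this block also takes the split out of the spread.

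Other members went opposite ways in the sets. CYP21A2 had 118 and 135 CPM in control replicates 1 and 2 and 73.1 and 77.1 in NFATC4-KO replicates 1 and 2, a difference of −0.74. In the high-numbered set it had 37.0 and 36.9 CPM in control and 41.4 and 41.0 in NFATC4-KO libraries, a difference of 0.15. Thus a deficit in the low-numbered set stood beside a small excess in the high-numbered set. POR went from 506 and 513 CPM to 451 and 439 in the low-numbered set (−0.19) and from 306 and 359 to 386 and 415 in the high-numbered set (0.27). FDXR, the reductase of the mitochondrial chain, had differences of −0.24 and 0.24, and CYP11A1 of −0.25 and 0.13. A deficit without overlap in the low-numbered set and an excess without overlap in the high-numbered set was found for 5 members and for 5.09% of all genes, and the fifth, CYP11B1, had at most 2 counts per high-numbered library. Adjusted p values for CYP21A2, POR, FDXR and CYP11A1 in the fit with the set were 0.0872, 0.839, 0.964 and 0.579 (edgeR). The fit of all 15 libraries with 6 means called CYP21A2 lower (−0.30, SE 0.06, adjusted p = 0.00207, edgeR), where 819 of 14368 genes were higher and 918 lower. That fit averages the opposite differences of the sets, so the call does not describe the high-numbered set. Because the sets were drawn from values of these libraries, it also takes the split out of the spread by construction.

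CYP11B2 did not follow the labels within either set. Its counts were 72 and 72 in control and 48 and 78 in NFATC4-KO replicates 1 and 2, and 0 and 3 in control replicates 3 and 4 and 2 and 2 in NFATC4-KO replicates 3 and 5. The differences within the sets were −0.04 and 0.05 on the log2 (CPM + 0.5) scale, and the fit with the set gave −0.01 (SE 0.25, adjusted p = 0.990, edgeR). CYP11B1 had 35 and 45 counts in control and 23 and 21 in NFATC4-KO libraries of the low-numbered set, and 0, 0, 1 and 2 in the high-numbered set. A count of 0 in these libraries allows up to 0.137 CPM.

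**Figure D4:**
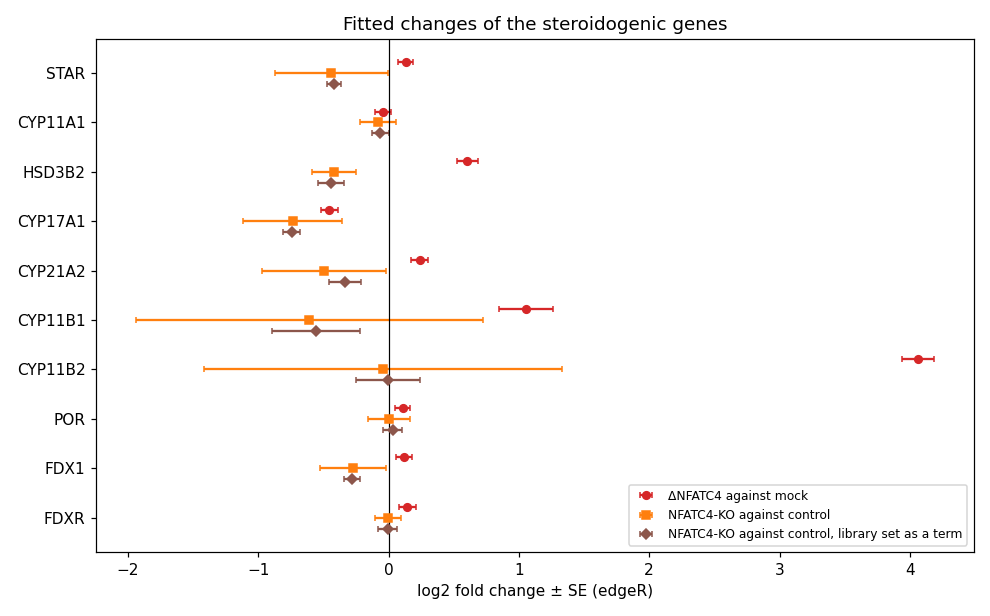
Log2 fold change with its SE from edgeR for the 10 genes, for ΔNFATC4 against mock (circles), NFATC4-KO against control as labelled (squares) and the latter with the library set as a term (diamonds). The squares of CYP11B1 and CYP11B2 have SE of 1.33 and 1.37, and the diamonds of STAR, HSD3B2, CYP17A1 and FDX1 lie below 0 by 0.28 to 0.74.

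The larger difference was between the low-numbered and the high-numbered set, and it ran through most of the pathway. Of the 10 members, 8 were wholly lower in the 4 high-numbered than in the 4 low-numbered libraries (20.0% of 14368 genes were), 0 were wholly higher (17.3% were), and 5 were wholly lower by over 2-fold (3.31% were). The median difference of the members was −0.89 on the log2 (CPM + 0.5) scale and that of all genes −0.0049. Because the sets were drawn from values of these libraries, no test was made. They also differ in NFATC4 RNA, 1.92-fold, and whether they mark cultures, clones or days was not tested.

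The last enzymes differed most, and the upstream steps did not follow the order of the pathway. CYP11B2 had 270 counts in the low-numbered and 7 in the high-numbered set, 37.3-fold more relative to depth (17.9 to 93.8, exact interval for counting error only), and CYP11B1 had 124 and 3, 40.0-fold more (13.4 to 197). CYP21A2 was 2.58-fold higher in the low-numbered set (73.1 to 135 CPM against 36.9 to 41.4), STAR 2.39-fold (501 to 744 against 211 to 308) and CYP17A1 2.11-fold (115 to 197 against 49.1 to 98.4). FDX1 was 1.64-fold higher, POR 1.30-fold and CYP11A1 1.27-fold. In contrast HSD3B2 (21.7 to 39.5 against 30.7 to 40.6 CPM) and FDXR (253 to 313 against 251 to 320) overlapped between the sets. The carriers therefore did not move as a unit. FDXR was 2.90 ± 0.11 times FDX1 per length in the low-numbered set and 4.93 ± 1.10 times in the high-numbered set, without overlap.

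The set difference had the same direction in libraries of each label alone for all members except FDXR. In control libraries STAR differed by −1.30, CYP17A1 by −1.06, CYP21A2 by −1.76 and FDX1 by −0.68, and in NFATC4-KO libraries by −1.20, −1.10, −0.86 and −0.73. HSD3B2 differed by 0.04 and 0.57. FDXR differed by −0.21 and 0.27, of opposite sign. CYP17A1 was 3.35 ± 0.16 times HSD3B2 per length in the low-numbered set and 1.30 ± 0.33 times in the high-numbered set. The latter mean pools unlike labels, with 1.38 and 1.73 in control replicates 3 and 4 and 1.00 and 1.08 in NFATC4-KO replicates 3 and 5. In ΔNFATC4 libraries the ratio was 1.31 to 1.41. CYP17A1 was lower in the high-numbered set, and HSD3B2, whose libraries overlapped between the sets, had a mean of 37.1 against 30.7 CPM.

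**Figure D5:**
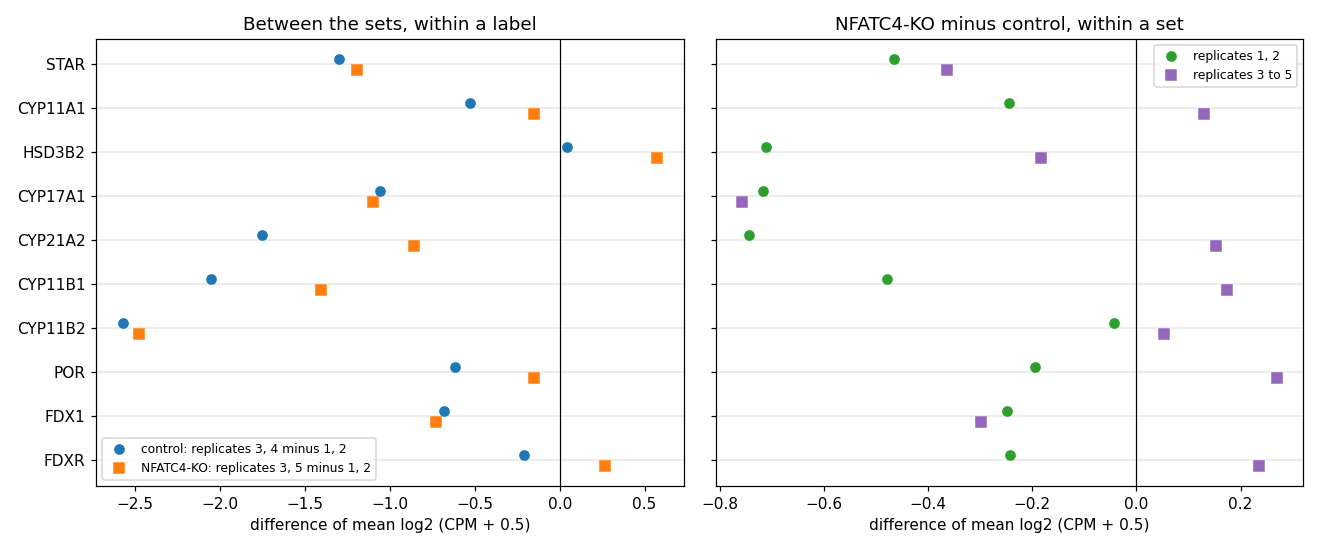
Differences of mean log2 (CPM + 0.5), a scale that understates the change of the 2 CYP11B genes. The left panel shows the high-numbered minus the low-numbered set within the control libraries (circles) and the NFATC4-KO libraries (squares), and the right panel NFATC4-KO minus control within the low-numbered (circles) and the high-numbered set (squares). On the right, STAR, HSD3B2, CYP17A1 and FDX1 lie below 0 in both sets, and CYP11A1, CYP21A2, CYP11B1, POR and FDXR lie on opposite sides of 0.

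CYP11B2 was compared with 13402 genes by the root mean square difference of log2 CPM, centred per gene, over the 15 libraries. CYP11B1 was nearest, at 1.19, followed by TFPI2, a secreted protease inhibitor (1.30), GPX7, an endoplasmic reticulum peroxidase (1.42), ACP5, an acid phosphatase (1.42), and the unnamed gene ENSG00000254979 (1.44). The mean of each was lowest in the high-numbered set and was above the mock mean in ΔNFATC4 cells, which for these genes is a description. TFPI2 averaged 35.0 CPM in ΔNFATC4, 17.0 in mock, 17.5 in low-numbered and 1.05 in high-numbered libraries, and GPX7 averaged 3.01, 2.54, 2.43 and 0.0107. The likeness rests mostly on the high-numbered set, since none of these genes approached the 16.5-fold difference of CYP11B2 between ΔNFATC4 and mock cells.

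Neighbouring functions were read from fixed lists of genes named for their roles. Of 12 tested genes of cholesterol delivery, 1 was higher in ΔNFATC4 cells (the lipoprotein receptor SCARB1, 0.22 on the log2 scale, adjusted p = 0.0220, edgeR) and 1 lower (the sterol carrier STARD4, −0.31, adjusted p = 0.00915, edgeR), a count near the 7.69% and 6.10% of all genes. Among other electron donors and cofactor suppliers, PGRMC2 (−0.24) and IDH1 (−0.22) were lower, and CYB5A, the cytochrome b5 that aids the lyase activity of CYP17A1, had −0.03 (SE 0.08, adjusted p = 0.843, edgeR). Of 10 other enzymes served by POR or adrenodoxin, 2 were higher and 3 lower, where 7.69% and 6.10% of all genes were. The higher ones were CYP4V2 (0.34) and CYP24A1 (1.79, SE 0.30), which degrades vitamin D. CYP24A1 was scarce, with means of 0.461 CPM in mock and 1.62 in ΔNFATC4 libraries. The lower ones included SQLE (−0.42) and CYP51A1 (−0.38) of cholesterol synthesis, which kept the call in the fit of all 15 libraries, and CYP2U1 (−0.28). In these 3 lists no other call held in that fit.

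Of 16 other steroid enzymes tested, 3 were higher and 3 lower (7.69% and 6.10% of all genes), and 0 either way in the fit of all 15 libraries (2.27% and 1.42%). The higher ones were HSD17B1 (0.93), HSD3B7 (0.42) and CYP19A1 (0.28), of which HSD17B1 and CYP19A1 serve oestrogen synthesis, and HSD17B7 (−0.50), AKR1C3 (−0.42) and the DHEA sulphotransferase SULT2A1 (−0.27) were lower. Of 18 regulators of steroidogenic genes, 3 were higher and 2 lower, against the same 7.69% and 6.10%. MC2R, the receptor of ACTH (0.97, adjusted p = 1.77e-06, edgeR), and the orphan receptors NR4A2 (0.96, adjusted p = 2.79e-05, edgeR) and NR4A1 (0.49, adjusted p = 8.66e-06, edgeR) were higher. The angiotensin II receptor AGTR1 (−0.43, adjusted p = 8.65e-05, edgeR) and NR2F2 (−0.36, adjusted p = 0.00302, edgeR) were lower, and MC2R, NR4A2 and AGTR1 kept the call in the fit of all 15 libraries. NR5A1, which encodes SF-1, had a log2 fold change of −0.00036 (SE 0.07). Between NFATC4-KO and control libraries edgeR called 0 of the 68 tested genes of these 5 lists, and 9 (13.2%) had an unadjusted p under 0.05, as did 9.06% of all genes tested.

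Between the sets these lists are given beside the 20.0% of all genes wholly lower and the 17.3% wholly higher in the high-numbered set. Of 12 genes of cholesterol delivery 6 were wholly lower and 1 wholly higher, and of 17 other steroid enzymes 3 were wholly lower and 7 wholly higher. The medians were −0.25 and 0.13 on the log2 scale. Of 18 regulators 4 were wholly lower, near the share of all genes, and 1 wholly higher. NR5A1 was 324 to 395 CPM in the high-numbered and 341 to 505 in the low-numbered set.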

How the data were processed

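RNA-Seq was done on NCI-H295R cells in 15 libraries of 4 labelled groups. The authors made stranded mRNA libraries, trimmed reads with fastp, aligned them with STAR to GRCh38.p13 (GENCODE release 37) and counted reads per gene with featureCounts. Tool versions and the strand and multi-mapping settings are not given in the sources used here. Raw counts per gene were deposited, with a file for each library.

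Identifiers were matched to symbols, positions and exon lengths with GENCODE v44 of the same GRCh38 (21400 of 21493 matched). TMM factors, CPM and tests were computed with edgeR 4.0.16 (glmQLFit, robust, filterByExpr, Benjamini-Hochberg over all genes tested, adjusted p under 0.05) in R 4.3.3, on the 2 groups compared. Alternatives used DESeq2 1.42.0, limma 3.58.1, other scalings, filters, libraries and the replicate block. Only the edgeR fits of 2 groups were tested on simulated counts, drawn with a single dispersion and no split between sets. That simulation does not bear on the split libraries or on the alternatives. CPM per kilobase divides by the union of exons. Differences between sets and exact two-sided permutation tests used log2 (CPM + 0.5). A zero count leaves room for 3 counts, 0.108 to 0.158 CPM per library, for counting error only. Promoters are from RefSeq (GRCh38.p14) and 6 of the 10 genes were matched there. The others are STAR, CYP11B1, CYP11B2 and POR.

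The members, lists, sets and fits were chosen with earlier results of these data known. Named genes are the 10 members, NFATC4, the 5 genes nearest to CYP11B2, genes similar to or overlapping a member, and, of each list, the 4 called genes with the largest fold change (more are given where a list had 5 or 6). Same-numbered control and NFATC4-KO libraries deviated together from their group means (correlations across genes of 0.81, 0.79 and 0.71 for numbers 1, 2 and 3). The numbers were used as a block in an alternative fit, but not in the comparison as labelled. Number 3 lies in another set than numbers 1 and 2, which alone gives such correlations, so they do not show that the numbers pair the libraries. The result of a further gene in these lists is not reported here.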

Additional observations from a re-analysis of the deposited data

Results flagged for a closer look

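For 5 members, and for 5.09% of 14368 genes, the libraries labelled NFATC4-KO lay wholly below control in replicates 1 and 2 and wholly above control in replicates 3 to 5. The difference between these sets was not tested. On the log2 (CPM + 0.5) scale the values were −0.25 and 0.13 for CYP11A1, −0.74 and 0.15 for CYP21A2, −0.19 and 0.27 for POR, and −0.24 and 0.24 for FDXR, with 2 libraries on each side. For CYP11B1 they were −0.48 and 0.17, the latter from at most 2 counts per library. No library stood out from its group by Dixon's ratio in the 30 groups of 4 libraries examined, where chance gives about 1 in 20. That ratio seeks a single outlying library. Members that parted by set lie 2 libraries against 2 within the control and NFATC4-KO labels, where it could hardly flag any. Its outcome therefore does not show those groups to be uniform.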

How the results depend on the processing

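Of 160 values of single members under alternatives for ΔNFATC4 against mock, 152 kept their direction and side of the threshold. A fit of all 15 libraries with 4 means gave 2 members higher and 0 lower, and 326 genes higher and 204 lower. Leaving out 1 library gave 3 to 7 members higher, 644 to 1341 genes higher and 458 to 1219 lower, and −0.092 to 0.0055 for CYP11A1, which turned without ΔNFATC4 replicate 3. The 644 and 458 came without ΔNFATC4 replicate 2, and 485 and 493 genes were lower without replicates 1 and 3. Same-numbered libraries of these groups did not deviate together (correlations of 0.10, −0.09 and 0.04), and the replicate block gave 4 members higher and 1 lower.

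For NFATC4-KO against control, 144 of 178 values kept direction and side, and members lower numbered 5 in a fit of all libraries with 6 means (CYP21A2 beside the others), 4 with the set as a term and 2 with the replicate block. Genes higher and lower numbered 31 and 31 with 4 means, 819 and 918 with 6 means, 609 and 837 with the set, 44 and 94 with the block, 65 and 90 by DESeq2, and 0 to 1 and 0 without 1 library. CYP11A1, CYP11B1, CYP11B2, POR and FDXR, none of them called, turned in sign under some of these. With 6 means CYP11B1 had 1.51 and CYP11B2 0.16, and by limma-voom 0.49 and 0.29. With the block CYP11B2 had 0.0054 and POR −0.021. POR had −0.00089 with DESeq2's size factors and −0.0013 by DESeq2, and FDXR had 0.017 without scaling factors. Without 1 library the values ran from −0.18 to 0.0093 for CYP11A1, −1.24 to 0.12 for CYP11B1, −0.84 to 0.52 for CYP11B2, −0.12 to 0.11 for POR and −0.069 to 0.046 for FDXR. The cause was not tested. With at least 50 counts required, CYP11B1 and CYP11B2 were not tested. Depth limits both in the high-numbered set, where 3 and 7 counts were read in all.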
